A study of Homo sapiens with 14 samples.

Results

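PC3-ML was compared with PC3-N, which are sublines of PC3, a line of human prostate cancer cells. The comparison used 4 of the 14 arrays of the series, taken by the line named in the label: the 2 arrays of PC3-ML without cloning and the 2 arrays of PC3-N without an added receptor. The labels give PC3-ML as metastatic to bone and PC3-N as not. The other 10 arrays, 2 for each line, covered PC3-ML (Clone 1) and PC3-ML (Clone 3), both grown from single PC3-ML cells, PC3-N(PDGFRα), DU-145 (PDGFRα) and DU-145. They entered the fit to share the estimate of spread, and their levels are given at the end. DMEM with gentamicin and fetal bovine serum was the medium of every line, total RNA was taken up on RNeasy columns, and biotin-labelled target was hybridised to single-colour arrays. The labels name no treatment, no transgene and no animal host for PC3-ML or PC3-N, so the values are those of cells in culture. The 2 arrays of a line came from 2 passages of 1 culture. A p-value here therefore sets a difference beside the variation from passage to passage of these cultures, and not beside that of independently derived metastatic and non-metastatic lines.

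PC3 cells were isolated from a bone metastasis, and the metastatic behaviour of a subline is a label of the whole culture. Interleukin-1 beta is a secreted cytokine that binds its receptor on neighbouring cells and, through the adaptor MyD88 and the IRAK kinases, releases NF-kB from its inhibitor IkB. NF-kB then induces chemokines that attract neutrophils, the interleukin-1 beta gene itself and the inhibitor IkB-alpha. Metalloproteinases, integrins and keratins were described alongside because matrix turnover, adhesion and the epithelial state are classical subjects of work on metastatic sublines.

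Intensities below are RMA values on the deposited linear scale, given per array as replicate 1 and then replicate 2 of each line. A log2 difference is PC3-ML minus PC3-N, so that a positive value means higher in PC3-ML. Across the genes the 2 PC3-ML arrays correlated at r = 0.9942 and the 2 PC3-N arrays at 0.9925. PC3-N replicate 2 correlated with PC3-ML replicate 2 at 0.9935, so it was nearer to that array than to PC3-N replicate 1. With PC3-ML replicate 1 it correlated at 0.990. PC3-N replicate 1 correlated with PC3-ML replicate 2 at 0.9906 and with PC3-ML replicate 1 at 0.9843. Genes are not independent replicates, so these values are descriptions. The passages of PC3-N stood further apart than those of PC3-ML. A 2-fold or larger gap separated the passages for 3 genes in PC3-ML and for 27 in PC3-N, of which 24 were higher in PC3-N replicate 1.

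Both lines carried epithelial RNA and little sign of other cell types. EPCAM, an adhesion molecule of epithelia, read 450.0 and 483 in PC3-ML, against 519 and 619.8 in PC3-N. CDH1, the E-cadherin gene, lay at 26.9 and 25.0 in PC3-ML, against 33.9 and 29.5 in PC3-N, close to the lowest deposited intensity of 18.5, as did the basal keratin KRT5 and the prostate-specific antigen gene KLK3. CTNNA1, the alpha-catenin gene that PC3 cells are known to have lost, was between 22.3 and 23.9 on the 4 arrays. The summed intensity of 12 fibroblast and stromal markers was 338 to 356 in PC3-ML and 342 to 348 in PC3-N, and that of 10 leukocyte markers 304 to 320 in PC3-ML and 334 to 341 in PC3-N. PTPRC, which marks leukocytes, was at 20.04 and 19.98 in PC3-ML, against 20.01 and 19.79 in PC3-N. The summed intensity of 9 endothelial markers was 336 to 363 in PC3-ML and 379 to 453 in PC3-N, with the receptor gene KDR alone reading 85.5 and 114 in PC3-ML, against 194 and 133 in PC3-N. No marker of these 3 lists was called.

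A gene was called when its adjusted p, by limma with Benjamini-Hochberg adjustment over all 18372 genes, was under 0.05. In PC3-ML against PC3-N 64 genes were called, 0.348% of those tested. Of them 40 rose in PC3-ML (0.218%) and 24 fell (0.131%). Among the genes tested, the largest rises included the chemokine CXCL6, the proteoglycan ESM1, the reductase CYB5R2 and the membrane skeleton gene EPB41L3. The falls included RGS4, a regulator of G-protein signalling, and the keratin KRT8. Larger rises of probe sets without a single gene symbol are given near the end. Changes of 2-fold or more were found in 13 genes that rose and 3 that fell, together 0.0871% of the genes. A further 18 genes were 2-fold or more apart between the lines without a call, 4 higher and 14 lower in PC3-ML. Of the called genes 62 code for proteins and 2 are long non-coding RNAs. In all 64 the arrays of the lines did not overlap, which was also true of 39.5% of all genes. An exact permutation of 2 against 2 arrays cannot give a p below 0.333, so the calls rest on the spread shared by all 7 lines. An unadjusted p under 0.05 was found for 1930 genes (10.5%), 769 higher (4.19%) and 1161 lower (6.32%) in PC3-ML.

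The count depended on single passages. Fits that left out replicate 1 or replicate 2 of PC3-ML called 15 and 59 genes, and those that left out replicate 1 or replicate 2 of PC3-N called 12 and 170. Calls that held without any 1 array numbered 11: IL1B, CXCL6, INHBA, ESM1, TIMP3, EPB41L3, CCDC88C, CYB5R2, HOXB9 and ZFPM2 among the rises, and RGS4 alone among the falls. With only the 4 arrays of PC3-ML and PC3-N in the fit, 1 gene was called, TIMP3 (limma adjusted p = 0.0459). The median over genes was at most 37.3 on the 4 arrays. Of the rises 15 had a PC3-N mean, and of the falls 9 had a PC3-ML mean, under that value. Intensities there lie toward the lower end of the scale, where differences may be compressed. Whether those differences are low estimates was not tested.

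**Figure D1:**
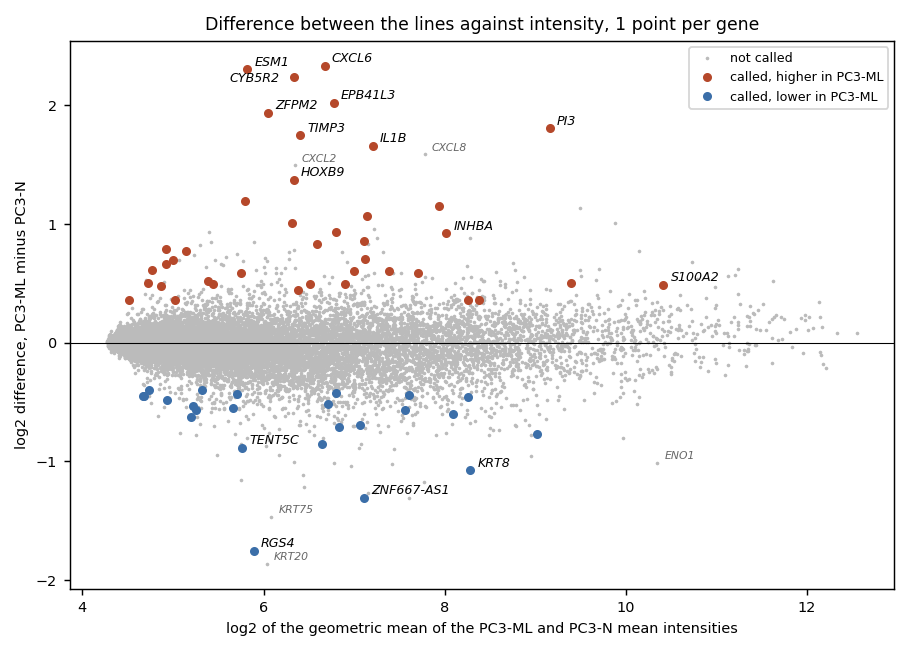
Log2 difference between PC3-ML and PC3-N (vertical axis, PC3-ML minus PC3-N) against the log2 of the mean intensity of the lines (horizontal axis), 1 point per gene. Red points are the 40 genes called higher in PC3-ML and blue points the 24 called lower. Grey points with a name, such as KRT20, were as far apart between the lines as called genes and were not called.

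The neutrophil-attracting chemokine genes CXCL6 and CXCL1, the interleukin-1 beta gene and the NF-kB inhibitor gene NFKBIA rose in PC3-ML. CXCL6, which signals through the receptors CXCR1 and CXCR2, read 250.3 and 209.8 in PC3-ML, against 45.9 and 45.0 in PC3-N (log2 difference 2.33 with SE 0.12, adjusted p = 3.22e-05). CXCL1, a ligand of CXCR2, read 411 and 318 in PC3-ML, against 149 and 179 in PC3-N (log2 difference 1.15 with SE 0.17, adjusted p = 0.0283). Every PC3-ML array was above every PC3-N array in both genes, by 5.04-fold and 2.22-fold between the geometric means. CXCL8, the interleukin-8 gene, had 491 and 281 in PC3-ML, against 106 and 145 in PC3-N, but its PC3-ML passages were far apart and it missed the threshold (log2 difference 1.59 with SE 0.27, adjusted p = 0.0504). Likewise CXCL2 had 171 and 106 in PC3-ML, against 47.5 and 47.9 in PC3-N and was not called (log2 difference 1.50 with SE 0.28, adjusted p = 0.0685). CXCL1 and CXCL2 encode closely similar messages, and how far a probe set of one takes up the other was not tested.

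Of the 12 measured genes of the list of neutrophil-attracting chemokines and CCL2, 2 rose, 0 fell and 10 were not called, with a median log2 difference of 0.32, where the median of all genes was -0.0052. An unadjusted p under 0.05 was found for 6 of them, all higher in PC3-ML, beside 4.19% of all genes. CXCL5 (0.40) and the monocyte attractant CCL2 (0.35) were the remaining ones with such a p. The receptor genes CXCR1 and CXCR2, which neutrophils carry, both lay between 20.9 and 21.5 on the 4 arrays. The number of chemokine genes called ran from 0 with only the 4 arrays, and 1 with replicate number as a block or when replicate 1 of either line was left out, to 4 when dim genes were left out.

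IL1B, which encodes interleukin-1 beta, read 264 and 258 in PC3-ML, against 71.4 and 95.5 in PC3-N (log2 difference 1.66 with SE 0.14, adjusted p = 0.000693). The PC3-ML passages lay closer together than the PC3-N passages, and no array of one line reached the other. It was the 1 called gene of 16 measured interleukin-1 ligands, receptors and adaptors, whose median was 0.029. IL1A, the other agonist gene, and IL1RN, the antagonist gene, lay between 22.1 and 24.5 on the 4 arrays. IL1RL1, the receptor for interleukin-33, had a log2 difference of 0.29 and the kinase gene IRAK2 one of 0.26, neither called (adjusted p = 0.207 and 0.398).

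NFKBIA, which encodes IkB-alpha, read 224 and 187 in PC3-ML, against 88.9 and 107 in PC3-N (log2 difference 1.07 with SE 0.12, adjusted p = 0.00615). Both PC3-ML values were above both PC3-N values, by 2.10-fold between the geometric means. Among 17 NF-kB subunits and feedback inhibitors it alone was called, and the median was 0.020. The subunit gene RELA had 71.3 and 84.1 in PC3-ML, against 101 and 86.6 in PC3-N and went the other way without a call (log2 difference -0.27 with SE 0.12, adjusted p = 0.451), and NFKB1 differed by 0.02. Of 15 other NF-kB target genes 0 were called in either direction, with a median of 0.032. In limma 4 of them had an unadjusted p under 0.05, all higher in PC3-ML, where 4.19% of all genes were: LCN2 (0.72), BIRC2 (0.45), ICAM1 (0.22) and PTGS2 (0.26). BIRC2 lies in a stretch of chromosome 11, described below, where 37 of 40 neighbouring genes had positive differences. The cytokine gene IL6 had 28.8 and 26.0 in PC3-ML, against 32.9 and 28.6 in PC3-N and was not called.

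CXCL6 and IL1B kept their calls without any 1 array. Without PC3-ML replicate 1 the adjusted p was 0.248 for CXCL1 and 0.0649 for NFKBIA, and without PC3-N replicate 1 it was 0.201 and 0.0694.

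The promoters of the 4 called genes of these lists are shown because NF-kB is the factor that the pathway ends in. The sequences are the 150 bases before the start of each gene in RefSeq (GRCh38.p14), on the gene's strand, and capitals mark matches to the NF-kB consensus.
CXCL6, chr4:73836528-73836677, plus strand: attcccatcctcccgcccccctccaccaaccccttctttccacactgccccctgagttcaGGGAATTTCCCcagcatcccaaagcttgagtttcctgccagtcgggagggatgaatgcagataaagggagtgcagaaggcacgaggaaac
CXCL1, chr4:73869243-73869392, plus strand: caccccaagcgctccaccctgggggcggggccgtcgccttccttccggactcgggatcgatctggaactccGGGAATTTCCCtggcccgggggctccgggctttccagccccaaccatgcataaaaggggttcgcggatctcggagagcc
NFKBIA, chr14:35404750-35404899, minus strand: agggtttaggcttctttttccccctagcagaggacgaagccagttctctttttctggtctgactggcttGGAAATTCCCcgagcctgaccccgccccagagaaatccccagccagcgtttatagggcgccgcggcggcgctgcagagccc
IL1B, chr2:112836780-112836929, minus strand: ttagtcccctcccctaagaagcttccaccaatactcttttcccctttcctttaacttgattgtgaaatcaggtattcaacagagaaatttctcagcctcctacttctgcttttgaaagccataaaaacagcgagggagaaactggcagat
In the wider window of 250 bases before to 50 after the start, searched on both strands, CXCL6 held 2 overlapping consensus matches at positions -90 to -80, CXCL1 held 2 at -79 to -69 and NFKBIA 1 at -81 to -72. IL1B held 0 in that window. The consensus occurred in 3956 of 35116 RefSeq promoters of the same length (11.3%). The AP-1 motif TGANTCA was found 0 times in the 4 windows and in 7.71% of all. A match is a run of letters and not a measured binding site. The 4 genes came from lists of the NF-kB pathway and genes it induces. Their matches beside these shares therefore say nothing about PC3-ML.

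**Figure D2:**
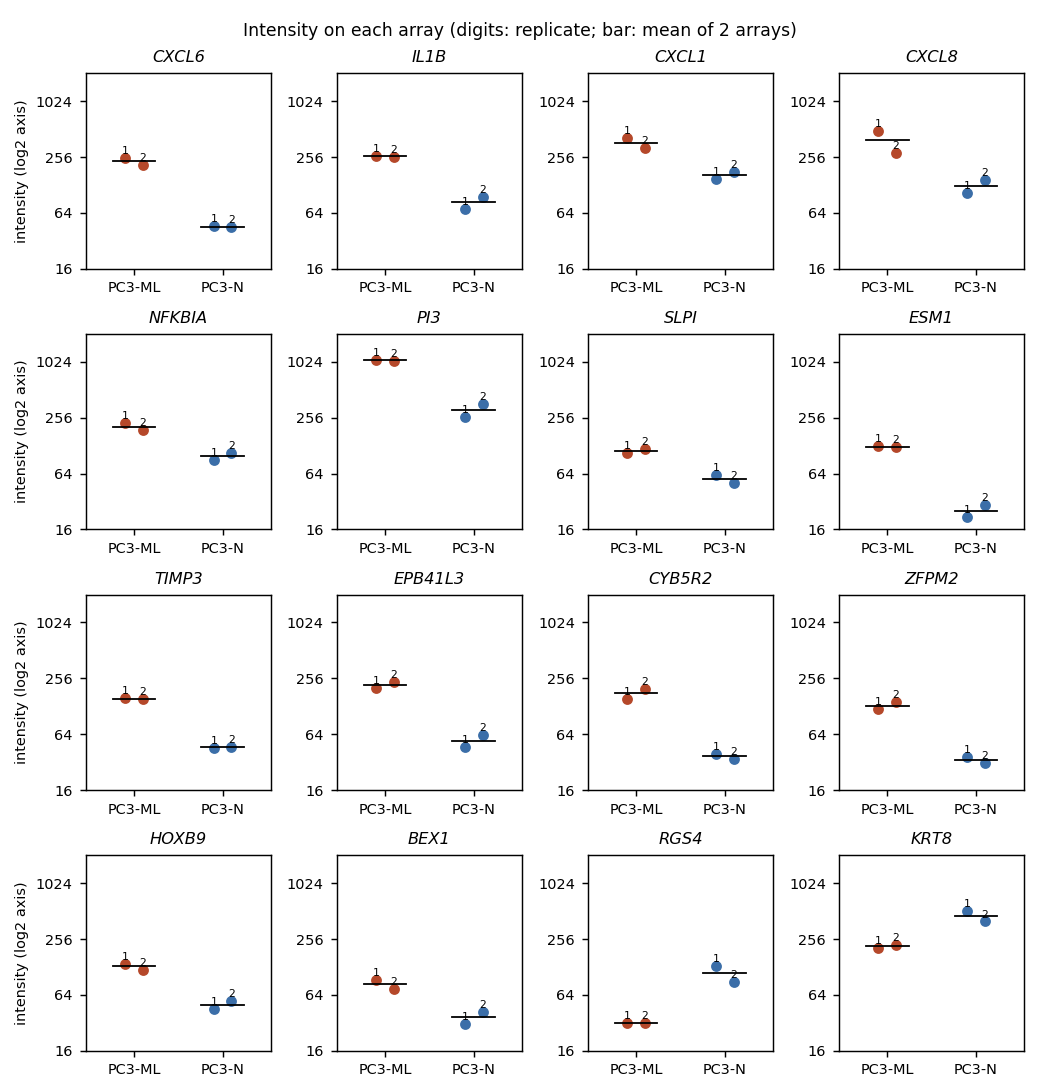
Intensity on each array for 16 genes (vertical log2 axes, RMA intensity). Points are single arrays, digits give the replicate and bars the mean of the 2 arrays, with PC3-ML in red at the left and PC3-N in blue at the right of each panel. PC3-ML lies above PC3-N in 14 panels and below it for RGS4 and KRT8, and CXCL8, which was not called, has passages far apart.

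The elastase inhibitor genes PI3 and SLPI rose. PI3, which encodes the elastase inhibitor elafin, read 1069.5 and 1058 in PC3-ML, against 260.0 and 356 in PC3-N (log2 difference 1.81 with SE 0.21, adjusted p = 0.00914). SLPI, a second inhibitor of leukocyte elastase, read 108 and 118 in PC3-ML, against 61.8 and 50.5 in PC3-N (log2 difference 1.01 with SE 0.15, adjusted p = 0.0237). Neither gene showed an overlap between the lines. They were the 2 called of 13 measured secreted epithelial defence genes, which had a median of 0.047 and 0 members that fell. LCN2 (0.72) and SERPINB3 (0.41), which encode lipocalin 2 and a serpin of squamous epithelia, were not called. Without PC3-ML replicate 1 the adjusted p was 0.0896 for PI3 and 0.150 for SLPI, and without PC3-N replicate 1 it was 0.0778 and 0.0775. SLPI also lost its call without replicate 2 of PC3-ML (0.0814) and of PC3-N (0.0589).

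TIMP3, a tissue inhibitor of metalloproteinases that is held in the extracellular matrix, read 158 and 153 in PC3-ML, against 45.8 and 46.8 in PC3-N (log2 difference 1.75 with SE 0.093, adjusted p = 3.22e-05). Within each line the passages lay close together and the lines were 3.35-fold apart. A second, dimmer probe set of TIMP3 gave 43.8 and 40.3 in PC3-ML and 32.7 and 32.3 in PC3-N, a log2 difference of 0.37 that was not called (limma adjusted p = 0.113 over all probe sets). TIMP3 was the 1 called of 19 measured metalloproteinases and inhibitors, whose median was -0.099. The inhibitors TIMP2 and TIMP1 had negative differences without a call: TIMP2 had 249.7 and 302 in PC3-ML, against 477 and 465 in PC3-N (log2 difference -0.78 with SE 0.15, adjusted p = 0.0722), and TIMP1 had a log2 difference of -0.53 (adjusted p = 0.375). In all 6 members were lower at an unadjusted p under 0.05, beside 6.32% of all genes: TIMP2, TIMP1, the collagenase genes MMP1 (-1.16) and MMP13 (-0.77), ADAM10 (-0.38) and ADAMTS1 (-0.31). MMP1 read 31.7 and 35.2 in PC3-ML, against 132 and 42.0 in PC3-N, so that its PC3-N level was set by replicate 1. Of 6 plasminogen activation genes 0 were called, with a median of -0.26, and PLAT, the tissue plasminogen activator gene, had 244 and 333 in PC3-ML, against 523 and 430.4 in PC3-N (adjusted p = 0.141).

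Other secreted products rose as well. ESM1, which encodes the proteoglycan endocan, read 126 and 123 in PC3-ML, against 21.7 and 29.4 in PC3-N (log2 difference 2.30 with SE 0.13, adjusted p = 4.00e-05). Its PC3-N values lay close to the lower end of the scale and its PC3-ML values well above. ANGPT1, the ligand of the receptor TIE2 on endothelial cells, was dim in both lines, with 32.0 and 37.2 in PC3-ML, against 23.3 and 26.2 in PC3-N (log2 difference 0.48 with SE 0.077, adjusted p = 0.0363). These were the 2 called of 13 genes of the VEGF axis and endocan. VEGFA (-0.44) and the receptor genes NRP1 (-0.72) and KDR (-0.71) had negative differences and were not called (adjusted p = 0.392, 0.224 and 0.320).

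INHBA, which encodes the subunit of activin A, read 361 and 350.4 in PC3-ML, against 207 and 169.7 in PC3-N (log2 difference 0.92 with SE 0.088, adjusted p = 0.00225), with a gap between the lines wider than that between the PC3-N passages. Among 28 genes of TGF-beta, BMP and Wnt signalling INHBA rose and PRICKLE1 fell, and the median was 0.015. TNFAIP6, a hyaluronan-binding protein induced by inflammatory cytokines, had 43.8 and 36.1 in PC3-ML, against 22.7 and 23.2 in PC3-N (log2 difference 0.79 with SE 0.10, adjusted p = 0.0142), both PC3-N values being at the lower end of the scale. S100A2, a calcium-binding protein, had 1592 and 1633 in PC3-ML, against 1195 and 1110.2 in PC3-N (log2 difference 0.49 with SE 0.082, adjusted p = 0.0444). It was among 21 called genes named after their values were seen, and its arrays did not overlap. Without PC3-ML replicate 1 the adjusted p was 0.0995 for TNFAIP6, 0.284 for S100A2 and 0.0383 for INHBA. Without PC3-N replicate 1 it was 0.105 for TNFAIP6, 0.171 for S100A2 and 0.238 for ANGPT1, and without replicate 2 of PC3-ML 0.0954 for ANGPT1 and 0.117 for S100A2. S100A2 without PC3-N replicate 2 had 0.107.

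Among the keratins 1 was called, and it fell in PC3-ML. KRT8, the simple epithelial keratin that pairs with KRT18, read 207 and 220.2 in PC3-ML, against 511 and 395 in PC3-N (log2 difference -1.07 with SE 0.16, adjusted p = 0.0308). Its PC3-N values were 2.11-fold above its PC3-ML values in geometric mean, and the arrays did not overlap. KRT20 had a wider gap, with 27.8 and 32.7 in PC3-ML, against 233 and 51.5 in PC3-N, and missed the threshold (log2 difference -1.86 with SE 0.50, adjusted p = 0.193). KRT75 (36.0 and 41.1 in PC3-ML, against 175 and 64.5 in PC3-N) and KRT18 (36.3 and 80.8 in PC3-ML, against 168 and 94.1 in PC3-N) were also not called (adjusted p = 0.146 and 0.333). In each of the 3 the highest value belonged to PC3-N replicate 1, the array in which 24 genes stood 2-fold or more above their other PC3-N passage. Of 14 measured keratins 0 rose, 1 fell and 13 were not called. Their median was -0.16, and 5 were lower at an unadjusted p under 0.05, beside 6.32% of all genes, and 0 higher. KRT8 had an adjusted p of 0.256 without PC3-ML replicate 1, 0.0710 without PC3-ML replicate 2 and 0.200 without PC3-N replicate 1. With any 1 of these arrays left out, 0 keratins were called, whereas 3 were called lower without PC3-N replicate 2 and also when dim genes were left out.

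KRT8 was also the 1 called of 7 prostate epithelial markers (median -0.29). In limma 4 of the 7 were lower at an unadjusted p under 0.05, beside 6.32% of all genes, and 0 higher. This list shares KRT8, KRT18 and KRT5 with the keratins. HOXB13, a prostate homeobox gene, had 103 and 136 in PC3-ML, against 259.9 and 152 in PC3-N and KLK3 25.3 and 26.4 in PC3-ML, against 27.3 and 29.6 in PC3-N, neither called. In bulk RNA, fewer cells with a transcript and less transcript in each cell cannot be told apart. Of 18 epithelial junction genes and 16 mesenchymal genes 0 were called (medians -0.030 and 0.00063). The desmosome gene PKP2 (-0.55), the tight junction gene CLDN1 (-0.55), the fibronectin gene FN1 (-0.78) and the transcription factor gene TCF4 (0.39) came closest. VIM, the vimentin gene, had 299 and 305 in PC3-ML, against 333 and 317 in PC3-N.

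Membrane skeleton and adhesion genes changed in both directions. EPB41L3, a band 4.1 protein that links membrane proteins to the actin skeleton, read 204 and 235 in PC3-ML, against 46.5 and 62.7 in PC3-N (log2 difference 2.02 with SE 0.13, adjusted p = 8.23e-05). It was the 1 called of 10 band 4.1 family genes (median -0.018). EPB41L2 (-0.35) and the moesin gene MSN (-0.42) had negative differences and were not called (adjusted p = 0.112 and 0.125). EPHA4, a receptor for ephrins, had 30.1 and 32.5 in PC3-ML, against 46.5 and 46.2 in PC3-N (log2 difference -0.57 with SE 0.078, adjusted p = 0.0203), and ITGB5, the beta 5 integrin subunit of a vitronectin receptor, 34.7 and 35.0 in PC3-ML, against 48.3 and 43.8 in PC3-N (log2 difference -0.40 with SE 0.067, adjusted p = 0.0444). In both genes the PC3-ML arrays were below the PC3-N arrays. ITGB5 was the 1 called of 15 integrins (median 0.0098). ITGB8 had a larger difference and was not called, with 52.9 and 63.3 in PC3-ML, against 161 and 97.1 in PC3-N (log2 difference -1.11 with SE 0.24, adjusted p = 0.107), while ITGA6, the laminin-binding alpha 6 subunit, had 0.29 and ITGB1, the beta 1 subunit, 411 and 412 in PC3-ML, against 355 and 436 in PC3-N. PRICKLE1, a planar cell polarity protein, had 92.2 and 119 in PC3-ML, against 166 and 173 in PC3-N (log2 difference -0.69 with SE 0.11, adjusted p = 0.0354). DLG2, a scaffold of cell junctions and synapses, fell by 0.45 on the log2 scale at the lower end of the intensities, with 21.8 and 22.3 in PC3-ML, against 31.3 and 28.8 in PC3-N. TMEM47, a membrane protein of cell junctions, rose (0.49), as did CCDC88C, which binds Dishevelled (0.59), both named after their values were seen. A second probe set of CCDC88C gave -0.17 (adjusted p = 0.891). EPB41L3 and CCDC88C held their calls without any 1 array, whereas the remaining ones had adjusted p values of 0.0995 to 0.314 without PC3-ML replicate 1 and of 0.0825 to 0.263 without PC3-N replicate 1.

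Genes of nuclear proteins changed in both directions. ZFPM2, a cofactor of GATA transcription factors also called FOG2, read 119 and 142 in PC3-ML, against 36.3 and 31.6 in PC3-N (log2 difference 1.94 with SE 0.10, adjusted p = 3.22e-05). Of 8 GATA factors and FOG cofactors it alone was called (median 0.037). HOXB9, a homeobox transcription factor, read 139 and 119.9 in PC3-ML, against 45.6 and 54.6 in PC3-N (log2 difference 1.37 with SE 0.11, adjusted p = 0.000693). In both genes the PC3-ML arrays were more than 2-fold above the PC3-N arrays. Of 10 HOXB genes HOXB9 rose and 9 were not called. Its neighbours in the cluster HOXB8 (0.33) and HOXB7 (0.30) had positive differences and HOXB13 a negative one (-0.75). Of 17 other HOX genes 0 were called (median 0.025).

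BEX1 and BEX5, small brain-expressed X-linked genes, had 93.0 and 74.5 in PC3-ML, against 31.3 and 42.1 in PC3-N (log2 difference 1.20 with SE 0.17, adjusted p = 0.0223) and 169.8 and 138 in PC3-ML, against 86.1 and 74.6 in PC3-N (log2 difference 0.93 with SE 0.11, adjusted p = 0.00953). Both rose, and 0 of the 11 measured BEX and related TCEAL genes fell (median -0.042). Their relatives BEX3 (-0.19), BEX4 (-0.28) and TCEAL1 (-0.24) had negative differences at an unadjusted p under 0.05 and were not called. TAF7, a subunit of the general factor TFIID, fell (-0.71), with 88.3 and 89.9 in PC3-ML, against 159 and 133 in PC3-N. PHF10, a subunit of a chromatin remodelling complex, had 86.3 and 89.0 in PC3-ML, against 132 and 119 in PC3-N (log2 difference -0.51 with SE 0.084, adjusted p = 0.0402). The zinc finger gene ZNF415 (-0.45), the splicing-related gene RSRC1 (-0.46) and the non-coding RNA ZNF667-AS1 fell too. ZNF415 was dim, with means of 21.7 in PC3-ML and 29.7 in PC3-N. ZNF667-AS1 had 68.2 and 109 in PC3-ML, against 221 and 207 in PC3-N (log2 difference -1.31 with SE 0.21, adjusted p = 0.0363). FAM111B, a protease-like nuclear protein, rose (0.86), with 202 and 169.8 in PC3-ML, against 102 and 102 in PC3-N. Of these genes ZFPM2 and HOXB9 kept their calls without any 1 array, and BEX1 had an adjusted p of 0.215 without PC3-ML replicate 1 and 0.153 without PC3-N replicate 1. BEX5 without PC3-ML replicate 1 had 0.0803, and the other genes 0.165 to 0.331 there and 0.105 to 0.255 without PC3-N replicate 1.

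Several signalling genes fell. RGS4, which speeds the shut-off of G-protein alpha subunits, read 32.2 and 31.9 in PC3-ML, against 132 and 88.6 in PC3-N (log2 difference -1.75 with SE 0.17, adjusted p = 0.00225). The PC3-ML values lay close together and below the median over genes of every 1 of the 4 arrays (36.8 or more). The gap between the PC3-N passages was smaller than that between the lines. Among 17 RGS genes 1 fell and 16 were not called (median -0.0049). RGS2, a second member of the family, had 349 and 344 in PC3-ML, against 524 and 439 in PC3-N and was not called (log2 difference -0.47 with SE 0.11, adjusted p = 0.131). PLK2, a polo-like kinase induced by stress, read 226 and 216 in PC3-ML, against 356 and 314 in PC3-N (log2 difference -0.60 with SE 0.095, adjusted p = 0.0363) and was the 1 called of 5 polo-like kinases. CABLES1, which binds cyclin-dependent kinases, had 69.1 and 79.4 in PC3-ML, against 155 and 116 in PC3-N (log2 difference -0.85 with SE 0.14, adjusted p = 0.0443), and the phosphatase regulator PPP1R2 161 and 174 in PC3-ML, against 226 and 227 in PC3-N (log2 difference -0.44 with SE 0.068, adjusted p = 0.0329). KLHL4, a kelch protein (-0.62), ARRDC4, an arrestin-domain protein (-0.48), LONRF2, a RING finger protein (-0.53), and TENT5C, a poly(A) polymerase (-0.89), also fell, with PC3-ML means of 26.0 to 39.9. CCDC50 (-0.57) and ERICH5 (-0.55) were also among the 20 largest falls. Among receptors and kinases that rose, TLR4, the receptor for bacterial lipopolysaccharide, was dim, with 35.5 and 31.8 in PC3-ML, against 22.0 and 21.9 in PC3-N (log2 difference 0.61 with SE 0.074, adjusted p = 0.00968). MAP4K5, a kinase upstream of JNK, had 270.4 and 242 in PC3-ML, against 177 and 164 in PC3-N (log2 difference 0.58 with SE 0.094, adjusted p = 0.0363). Neither gene's arrays overlapped, and both were named after their values were seen. RGS4 kept its call without any 1 array, while the other signalling genes named had adjusted p values of 0.0995 to 0.355 without PC3-ML replicate 1 and of 0.0778 to 0.255 without PC3-N replicate 1. Of 25 MAPK feedback and immediate early genes 0 were called, with a median of -0.045. The feedback inhibitor SPRY1 had 155 and 137 in PC3-ML, against 309 and 197 in PC3-N (adjusted p = 0.140), and DUSP6, a phosphatase for ERK, 47.7 and 48.8 in PC3-ML, against 61.6 and 61.7 in PC3-N. In limma 6 of the 25 were lower at an unadjusted p under 0.05, beside 6.32% of all genes, and 0 higher.

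CYB5R2, a cytochrome b5 reductase, rose, with 155 and 198 in PC3-ML, against 39.6 and 34.7 in PC3-N (log2 difference 2.24 with SE 0.13, adjusted p = 4.91e-05). ELOVL2, which elongates polyunsaturated fatty acids, read 136 and 121 in PC3-ML, against 66.2 and 78.4 in PC3-N (log2 difference 0.83 with SE 0.11, adjusted p = 0.0142), and STEAP1, a prostate membrane protein related to metalloreductases, 175 and 179 in PC3-ML, against 109 and 109 in PC3-N (log2 difference 0.70 with SE 0.11, adjusted p = 0.0321). COX7B2, a cytochrome c oxidase subunit otherwise known from testis, had 46.3 and 45.9 in PC3-ML, against 27.5 and 26.5 in PC3-N (log2 difference 0.77 with SE 0.10, adjusted p = 0.0161), while ATP5F1C, a subunit of ATP synthase, rose by 0.36 and VDAC1, the channel of the outer membrane, by 0.36. The monocarboxylate transporter gene SLC16A7 rose by 0.36, with 37.4 and 36.3 in PC3-ML, against 28.7 and 28.9 in PC3-N. CYB5R2 held its call without any 1 array, whereas the other 6 genes had adjusted p values of 0.0995 to 0.284 without PC3-ML replicate 1 and of 0.0928 to 0.204 without PC3-N replicate 1.

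Of 26 hypoxia-induced and glycolysis genes 0 were called, and their median was -0.25. An unadjusted p under 0.05 was found for 9, all lower in PC3-ML, beside 6.32% of all genes. NDRG1, a stress-responsive gene, had 84.8 and 94.7 in PC3-ML, against 287 and 163 in PC3-N (adjusted p = 0.235), the glucose transporter gene SLC2A1 40.4 and 44.1 in PC3-ML, against 72.6 and 62.8 in PC3-N, and the enolase gene ENO1 599 and 1302 in PC3-ML, against 1737 and 1821 in PC3-N (adjusted p = 0.207). The PC3-ML passages of ENO1 were far apart, and only replicate 1 stood well below the PC3-N arrays. BNIP3, a mitophagy receptor, had 292 and 299 in PC3-ML, against 463 and 446 in PC3-N (log2 difference -0.62 with SE 0.16, adjusted p = 0.185), with passages close together in each line. Of 28 genes of ATF4 and the unfolded protein response 0 were called (median -0.15), with 1 higher and 8 lower at an unadjusted p under 0.05, beside 4.19% and 6.32% of all genes. SLC7A11, the cystine transporter, had 80.5 and 104 in PC3-ML, against 358 and 134 in PC3-N, and DDIT3, a stress transcription factor, 59.7 and 57.3 in PC3-ML, against 85.8 and 69.4 in PC3-N. HSP90B1, an endoplasmic reticulum chaperone, was the 1 higher (0.20).

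Other called genes had scattered roles. FEZ1, a protein of axon growth, had 35.6 and 46.4 in PC3-ML, against 24.9 and 25.3 in PC3-N (log2 difference 0.70 with SE 0.11, adjusted p = 0.0371) and was the 1 called of 13 neuroendocrine and neuronal genes (median 0.0036). The neuroendocrine markers CHGA, SYP and NCAM1 lay between 22.9 and 26.0 on the 4 arrays. CEP170, a centrosomal protein, rose by 0.61, DYNC1I2, a dynein subunit, by 0.49, TRNT1, the enzyme that adds CCA to transfer RNA, by 0.45, and BICC1, an RNA-binding protein, by 0.67. CCDC117, SMIM30, ARL14EP, ANKRD62, CFAP68 and WDR72 rose by 0.36 to 0.60. Of these, ANKRD62 and WDR72 were dim, with means of 31.4 and 25.9 in PC3-ML, against 22.2 and 20.2 in PC3-N. A second probe set of ANKRD62 gave 0.03 (adjusted p = 0.965). LMLN, a metalloprotease-like gene (-0.44), TMEM19 (-0.42) and the dim non-coding RNA B3GALT5-AS1 (-0.40, mean 23.2 in PC3-ML and 30.6 in PC3-N) fell. Apart from FEZ1 these genes, with ATP5F1C, VDAC1 and SLC16A7 above, were named after their values were seen. In FEZ1 and each of the genes of this paragraph the call was lost without PC3-N replicate 1, with adjusted p values of 0.0775 to 0.220.

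In all, the 36 lists held 570 genes, of which 514 were measured and 21 called, 16 higher and 5 lower in PC3-ML. Of all genes 0.348% were called, and the lists were drawn up with earlier results of these data known. At least 1 member was called in 17 lists and none in 19. Bone-related genes were among the lists without a call. Of 21 bone matrix and osteoclast-regulating genes 0 were called (median 0.011). RUNX2, the osteoblast transcription factor, had 42.1 and 42.4 in PC3-ML, against 33.3 and 34.6 in PC3-N (log2 difference 0.32 with SE 0.096, adjusted p = 0.249), and TNFRSF11A, the receptor RANK, 65.7 and 63.5 in PC3-ML, against 57.9 and 56.0 in PC3-N (log2 difference 0.18 with SE 0.065, adjusted p = 0.336). These were the 2 with an unadjusted p under 0.05. DKK1, a Wnt antagonist known from bone lesions, had 646 and 648 in PC3-ML, against 628 and 633 in PC3-N, and its arrays lay close together in both lines. The ligand RANKL gene TNFSF11 and the decoy receptor gene TNFRSF11B lay between 22.5 and 25.6.

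PDGFRA, which encodes the platelet-derived growth factor receptor alpha, had 104 and 155 in PC3-ML, against 103 and 109 in PC3-N (log2 difference 0.26 with SE 0.19, adjusted p = 0.766). Its PC3-ML replicate 1 fell between the PC3-N arrays, so the lines overlapped. Of 7 PDGF ligands and receptors 0 were called (median -0.041), and the ligand gene PDGFC had a difference of -0.30 (adjusted p = 0.336). ELMO1, which acts with DOCK proteins in cell migration, differed by 0.02 (adjusted p = 0.976). It read 21.3 and 21.6 in PC3-ML, against 21.9 and 20.3 in PC3-N, close to the lower end of the scale. At that level the small difference cannot show whether the lines express the gene alike.

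Of 30 cell cycle genes 0 were called (median 0.016). AURKA (0.23) and CDK1 (0.49), which drive mitosis, and CCND1 (-0.40), the cyclin D1 gene, had the smallest p with MCM2 (-0.22). MKI67, the Ki-67 gene, had 274 and 359 in PC3-ML, against 254 and 328 in PC3-N. No gene was called among 25 interferon-stimulated genes (median -0.038), 20 sterol and fatty acid synthesis genes (0.046), 11 androgen receptor program genes (-0.0087) and 16 progenitor markers and aldehyde dehydrogenases (-0.021). Medians of the fibroblast, leukocyte and endothelial markers were -0.0032, -0.039 and -0.033. Unadjusted p values under 0.05, found for 4.19% of all genes higher and 6.32% lower, were those of 4 higher and 3 lower cell cycle genes, 1 lower interferon-stimulated gene, 0 sterol genes, 1 higher and 1 lower androgen program gene, and 1 higher and 2 lower progenitor genes, one of them the surface marker CD24 (88.3 and 109.7 in PC3-ML, against 230.4 and 138 in PC3-N).

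**Figure D3:**
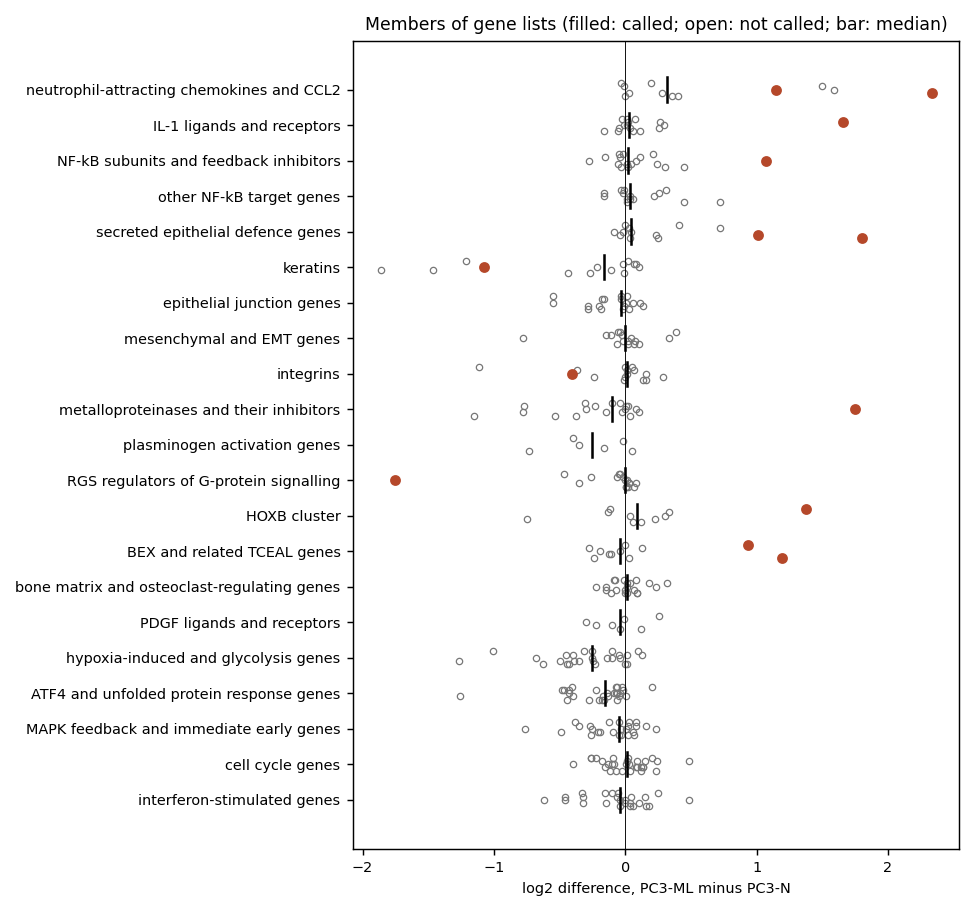
Log2 difference, PC3-ML minus PC3-N, of each measured member of 21 of the 36 gene lists (horizontal axis), 1 row per list. Filled red points were called, open points were not, and the black bar is the median of the list. The chemokine row has its median at 0.32, and the hypoxia row at -0.25 with 0 called members.

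On a few chromosomes, long runs of neighbouring genes had differences of mostly 1 sign. The 5874 genes with a mean intensity of 60 or more were set in RefSeq order (GRCh38.p14), and medians were taken over windows of 40 genes, each window starting 10 genes after the last, so that neighbouring windows share genes. The median log2 difference of these genes was -0.034, and the windows at the 5th and 95th percentile had -0.18 and 0.11. The lowest windows lay on chromosome 3 from CHCHD6 to DIPK2A (median -0.31, 37 of 40 genes negative), on the X chromosome from CDK16 to MED12 (-0.31, 33 of 40) and on chromosome 1 from ACOT7 to CAMK2N1 (-0.30, 36 of 40). The highest was on chromosome 11 from FZD4 to FDX1 (0.24, 37 of 40 positive). Among the genes placed, a called one was in none of these 4 windows. Probe sets with several gene symbols or none were not placed.

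Under -0.2 there were 19 of 510 windows, 6 of the 34 on chromosome 3, 6 of the 16 on the X and 4 of the 58 on chromosome 1, and over 0.2 there were 4, all of them among the 31 on chromosome 11. On chromosome 3 the window deviated from the mean of the PC3 arrays by -0.20 and -0.12 in PC3-ML, against 0.18 and 0.09 in PC3-N. The chromosome 11 window deviated by -0.02 and 0.02 in PC3-ML, against -0.21 and -0.28 in PC3-N. In the X window the values were -0.26 and -0.14 in PC3-ML, against 0.09 and 0.04 in PC3-N. Both passages of a line lay on the same side of both passages of the other in each of these windows. On chromosome 3 the clones of PC3-ML lay nearer to 0, with -0.0062 in PC3-ML (Clone 1) and -0.06 in PC3-ML (Clone 3), and PC3-N(PDGFRα) had 0.02. On chromosome 1 the clones split, with 0.25 and -0.13, beside -0.22 and -0.16 on the PC3-ML arrays and 0.07 and 0.01 on the PC3-N arrays. The clones did not share the X deviation, with 0.00 in PC3-ML (Clone 1) and 0.11 in PC3-ML (Clone 3). On chromosome 11 they read 0.18 and 0.24, and PC3-N(PDGFRα) read -0.19. Of the 24 called falls 5 lay on chromosome 3 (ITGB5, LMLN, PPP1R2, RSRC1 and CCDC50), 20.8% where the chromosome holds 5.50% of the genes tested. Of the 40 called rises 5 lay on chromosome 11 (12.5%, against 6.70% of the genes). Calls in the other direction were 1 rise on chromosome 3 (TRNT1) and 1 fall on chromosome 11 (DLG2). The X held 3 called rises and 1 fall (7.5% of the rises and 4.17% of the falls, against 3.77% of the genes). Chromosome 1 held 2 of each (5.0% and 8.33%, against 10.1% of the genes). Other chromosomes had raised shares too. Chromosome 12 held 3 falls and 1 rise (12.5% of the falls, against 5.34% of the genes). Chromosome 14 held 3 rises and 0 falls (7.5% of the rises, against 3.20% of the genes). No measure of DNA was used here, and these stretches were picked out after their values were seen.

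**Figure D4:**
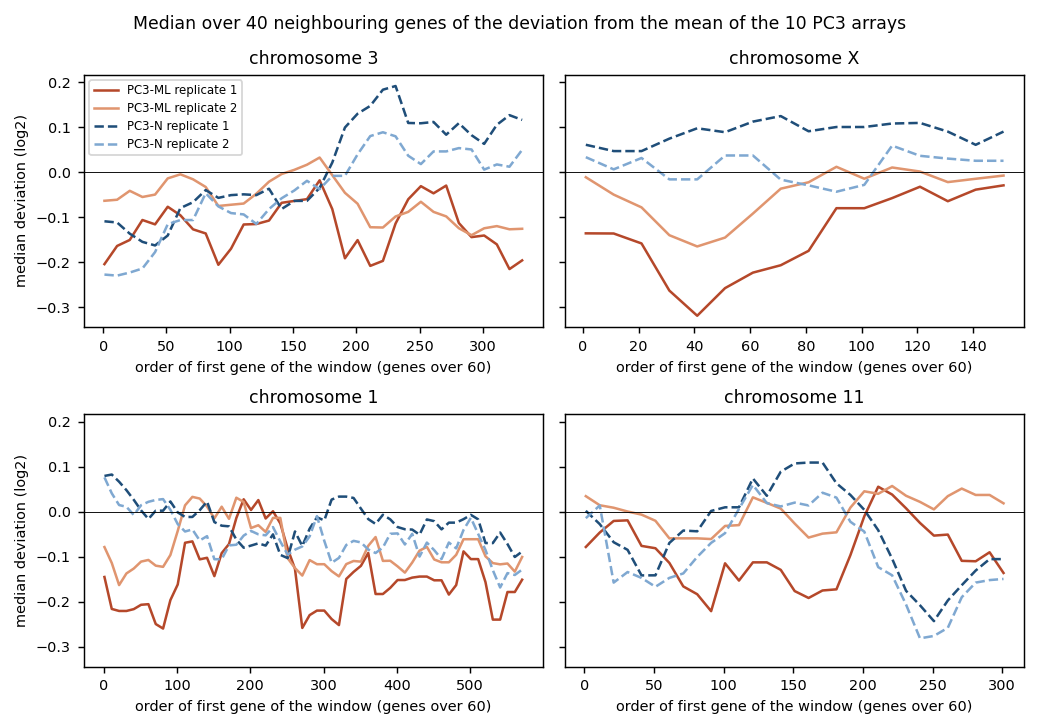
Median log2 deviation of 40 neighbouring genes from the mean of the 10 PC3 arrays (vertical axis) along chromosomes 3, X, 1 and 11 (horizontal axis, order of the first gene of the window among genes with a mean intensity of 60 or more). Solid lines are the PC3-ML arrays and dashed lines the PC3-N arrays. PC3-ML lies below PC3-N in the later part of chromosome 3 and along the X, and above it near gene 250 of chromosome 11.

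The called genes took different levels in the other lines, which were not chosen for them. All values are the mean ± SD of 2 arrays, and since PC3-N or PC3-ML also stands in any difference that could be formed with these lines, the levels are only set side by side. TIMP3 averaged 155 ± 3.71 in PC3-ML, 26.5 ± 2.97 in PC3-ML (Clone 1), 33.4 ± 3.73 in PC3-ML (Clone 3), 27.0 ± 0.373 in PC3-N(PDGFRα) and 46.3 ± 0.689 in PC3-N. ZFPM2 likewise averaged 130.2 ± 16.2 in PC3-ML, 23.2 ± 0.248 and 23.4 ± 1.13 in its clones and 33.9 ± 3.31 in PC3-N, so that both clones lay below PC3-N. BEX1 and HOXB9 were in the same position, with 23.9 and 27.1 for BEX1 and 33.8 and 44.0 for HOXB9 in the clones.

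ESM1 split the clones, with 147 ± 2.39 in PC3-ML (Clone 1) and 22.8 ± 1.69 in PC3-ML (Clone 3), as did CYB5R2 in the other direction, with 52.8 ± 3.22 and 305 ± 1.06. CXCL6 read 230.1 ± 28.7 in PC3-ML, 351 ± 29.0 and 349 ± 36.7 in its clones, 174 ± 2.58 in PC3-N(PDGFRα) and 45.4 ± 0.656 in PC3-N. The ranges of PC3-ML, its clones and PC3-N(PDGFRα) lay above that of PC3-N for IL1B and CXCL1 as well. NFKBIA was at 331 ± 29.3 in DU-145 (PDGFRα) and 367 ± 21.5 in DU-145, above both PC3-ML and PC3-N. IL1B was at 30.1 ± 2.76 in DU-145 (PDGFRα) and 28.5 ± 1.75 in DU-145. A link between the levels of these genes was not tested.

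RGS4 stood out in PC3-N, with 110.1 ± 30.5, while the other 6 lines had means of 28.4 to 38.4. Of the 24 genes that fell, 15 were highest in PC3-N of the 7 lines and 5 lowest in PC3-ML. Of the 40 that rose 13 were highest in PC3-ML. PC3-N(PDGFRα) had a mean under that of PC3-N for 3 of the 40 rises, and over it for 3 of the 24 falls. All these counts were taken in genes called for a gap between PC3-ML and PC3-N, and that choice itself favours them. The shares over all genes were not counted, so nothing is concluded from them. PC3-N(PDGFRα) had means of 107.5 for ESM1, 174 for EPB41L3, 1356 for PI3 and 407 for INHBA. In PC3-N the means of these genes were 25.5, 54.6, 308 and 189. KRT8 was at 404 ± 1.60 in PC3-ML (Clone 1) and 240.2 ± 18.6 in PC3-ML (Clone 3), on either side of the middle between PC3-ML and PC3-N. ZNF667-AS1 ran from 24.1 ± 2.67 in PC3-ML (Clone 1) to 577 ± 7.46 in DU-145.

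**Figure D5:**
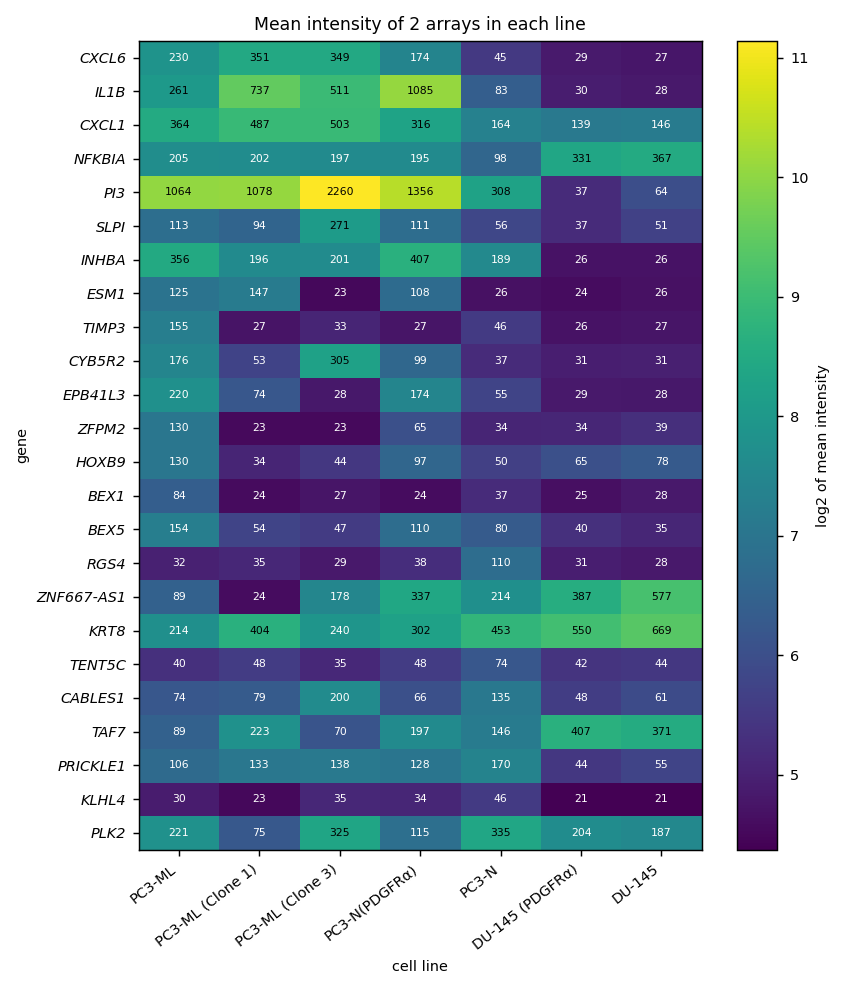
Mean intensity of 2 arrays (numbers; colour on a log2 scale) of 24 called genes (rows) in the 7 lines (columns). The first 15 rows rose and the last 9 fell in PC3-ML against PC3-N. CXCL6 and IL1B are bright in all PC3 lines but PC3-N, while TIMP3 and BEX1 are highest in PC3-ML.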

How the data were processed

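The deposited values were probe-level summaries from 14 single-colour arrays, 2 for each of 7 lines. The authors made these intensity values with RMA, per the submitters' processing notes, which corrects background, equalises the distribution over arrays and summarises each probe set. Its version is not given in the sources used here. Linear intensities of 18.5 to 8654 were deposited, with array medians over all probe sets of 29.9 to 31.6 and no detection calls. The number of arrays limits the precision.

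Of 28829 probe sets, 19291 had 1 gene symbol in the platform annotation, 1735 had several and 7803 had none. Of those with 1 symbol 19260 matched RefSeq, and 0 symbols were updated. Where a gene had several probe sets (682 genes), the one with the highest mean intensity stood for it, leaving 18372 genes with no filter on dim ones.

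After log2 without a pseudocount, a model with the 7 lines as groups was fitted over all 14 arrays (limma 3.58.1, R 4.3.3, lmFit, contrasts.fit, eBayes, 7 residual degrees of freedom, two-sided, Benjamini-Hochberg). The script was tested on simulated data. Lists were described by counts and medians, without a test. Named were the 20 largest rises and 20 largest falls among called genes without overlap, called list members, up to 6 members of each list by smallest p, and always CXCL6, IL1B, PDGFRA and ELMO1. Of these, 1 called gene is not reported here. CXCL6, IL1B and ELMO1 were known from the study's publication. The lists and the genes to name were chosen with earlier results of these data known.

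Replicate numbers were checked for pairing by correlating the deviations of equally numbered arrays. Over 21 pairs of lines r ran from -0.20 to 0.24 (median 0.036, 5 pairs over 0.1), and it was -0.20 for PC3-ML with PC3-N, so the numbers were not taken as pairs. The alternatives were other normalizations, filters, probe set rules, pseudocounts, sample sets, variance models, a block and the fits that left out 1 array.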

Additional observations from a re-analysis of the deposited data

Results flagged for a closer look

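Probe sets with no gene or several gene symbols in the platform annotation were outside the comparison of genes, and 9538 were measured. In a limma fit of all 28829 probe sets, 13 of these were called, 11 higher and 2 lower in PC3-ML. All 13 are given because they carry signal in data that the gene table left out.

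Probe set 8167560 read 1105.5 and 1139.7 in PC3-ML, against 72.8 and 89.2 in PC3-N, a log2 difference of 3.8 (limma adjusted p = 0.000202). It carried 10 symbols, all of the GAGE family of cancer-testis antigens, which are normally expressed in testis, and the copies cannot be told apart with it. The lines did not overlap. Its means were 23.2 in PC3-ML (Clone 1), 38.3 in PC3-ML (Clone 3) and 171.9 in PC3-N(PDGFRα). Probe set 8167575, with no gene, read 536 and 478 in PC3-ML, against 63.9 and 84.5 in PC3-N (2.79).

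The log2 difference was 1.49 for probe set 8021635, 1.0 for 8165692, 0.827 for 7943413 and 0.609 for 7974255, none with a gene. For 8175710, which carried 4 symbols, it was 0.537. Probe sets 8167577 and 8167584 gave 0.705 and 0.703, with nearly the same values on every array, and 8167562 and 8167482 gave 0.524 and 0.522, also nearly alike. Such pairs are not independent readings. Probe sets 8167482, 8167560, 8167562, 8167575, 8167577 and 8167584, whose numbers are close, also shared a pattern over the lines. Each was highest in PC3-ML, next in PC3-N(PDGFRα), and lower in both clones than in PC3-N. Whether they read the same locus was not tested, so they should not be counted as separate rises. Of the 2 lower ones, both with no gene, 7918813 read 101 and 101 in PC3-ML, against 251 and 213 in PC3-N (-1.20), and 7919747 read 21.0 and 22.0 in PC3-ML, against 29.8 and 31.1 in PC3-N (-0.50).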

How the results depend on the processing

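Each called gene kept its sign under every alternative that measured it, read from its brightest probe set where all were tested separately. A second, dimmer probe set of CCDC88C had the other sign (-0.17). Against 64 called genes (40 higher, 24 lower), counts moved by over 1.5 times in some settings. Leaving out genes with a mean intensity under 40 gave 106, of which 53 were lower. With only the 4 arrays, 1 gene was called, 1 higher and 0 lower (limma, with 1916 genes at an unadjusted p under 0.05), so 1 of the 64, 1 of the 43 called genes named by rule and 1 of the 21 called list members kept the call. With only the 5 PC3 lines 25 were higher, and 37 of the 64 and 26 of the 43 kept their calls. The falls numbered 43 with trended and robust eBayes and 40 with array weights. With replicate number as a block, 42 genes were called, 14 of them lower, and 40 of the 64 were kept. With the numbers crossed for PC3-ML and PC3-N, an alternative added after seeing the data, the counts were 42 and 14, with 37 of the 64 and 27 of the 43 kept. Leaving out 1 array gave 12 to 170 calls, 11 to 53 higher and 1 to 117 lower, and kept 12 to 44 of the 64, 11 to 36 of the 43 and 10 to 18 of the 21. Quantile normalization, median centring, a pseudocount of 16, the mean of probe sets and all probe sets tested separately gave 62 to 72 calls. The cause was not tested in these cases, beyond the fewer arrays or genes that a setting itself leaves. Genes near the lower end of the intensities may give differences that are low estimates, which was not tested.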
